A study of Mus musculus with 18 samples.

Results

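Antigen processing was followed through 10 genes of the mouse: the class II chains H2-Aa, H2-Ab1 and H2-Eb1, the invariant chain Cd74, the class II transactivator Ciita, the class I light chain B2m, the peptide transporter subunits Tap1 and Tap2, and the immunoproteasome subunits Psmb8 and Psmb9. The members are the array rows paired with exactly 1 gene that is one of these. Each gene had 1 such row, a probe set, so that 10 probe sets of 21789 and 10 genes of 19938 are described. The rows were taken by gene name, but the genes were chosen with earlier results of these data known.

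The study asked how deletion of Trpa1, an irritant-gated ion channel gene, with Cre from the keratin 14 promoter alters the skin and its sensory neurons. Transcripts were quantified on 18 Affymetrix arrays (Mouse Gene 1.0 ST), 3 biological replicates in each of 6 groups. Epidermis came from CFA mutant, CFA control, naive mutant and naive control mice, and dorsal root ganglia (DRG, the sensory ganglia) from naive mutant and naive control mice. Mutant mice were K14Cre-Trpa1fl/fl, in which exons for the channel pore are flanked by loxP sites, and control mice were K14Cre-Trpa1+/+, called wild type in the labels. Mice of both genotypes therefore carried Cre, driven by a keratinocyte promoter, and the excised allele was found by the study in epidermis but not in DRG. All were adult males of at least 7 weeks on a mixed background of C57BL/6, CBA and Swiss Webster, and the colonies of the 2 genotypes had been bred apart for many generations. CFA epidermis was taken 2 days after complete Freund's adjuvant, an oil emulsion of killed mycobacteria that inflames tissue, had been injected into the hindpaw. No array came from vehicle-injected mice, so inflammation and injection cannot be told apart. Genotype and colony cannot be told apart either, and how many mice went into each array was not given in the sources used here.

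MHC class II molecules are pairs of an alpha and a beta chain that carry peptides from ingested protein to CD4 T cells. In skin they are known mainly from Langerhans cells and other antigen-presenting cells, and interferon-gamma can induce them in other cells, keratinocytes among them, through Ciita. Class I molecules are found on nearly all nucleated cells. They need B2m as a light chain, peptides cut by the proteasome, whose immunoproteasome form holds Psmb8 and Psmb9, and the Tap1/Tap2 transporter that moves these peptides into the endoplasmic reticulum.

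Promoter windows of 4 members are printed to show where short motifs known from class II and class I promoters stand in them and where they are missing. Each runs from 250 bases before the annotated gene start to 50 after it, 5′ to 3′ on the gene's own strand, from RefSeq with build GRCm38.p6. Capitals mark short motifs, chosen after the sequences had been seen and searched on both strands. They are the X box core GCAAC, the Y box core GATTGG (also in capitals where it was read from the opposite strand, as CCAATC), the cAMP response element TGACGTCA, an interferon response element (GAAA, any pair of bases, then GAAA again) and a kappa B site (GGGA and then TCCC, parted by any 3 bases). The class II beta chain gene H2-Eb1 lies at chr17:34305617-34305916 on the plus strand, the class II alpha chain gene H2-Aa at chr17:34287774-34288073 on the minus strand, B2m at chr2:122147437-122147736 on the plus strand and Tap1 at chr17:34187306-34187605 on the plus strand, all coordinates being those of the windows.
H2-Eb1: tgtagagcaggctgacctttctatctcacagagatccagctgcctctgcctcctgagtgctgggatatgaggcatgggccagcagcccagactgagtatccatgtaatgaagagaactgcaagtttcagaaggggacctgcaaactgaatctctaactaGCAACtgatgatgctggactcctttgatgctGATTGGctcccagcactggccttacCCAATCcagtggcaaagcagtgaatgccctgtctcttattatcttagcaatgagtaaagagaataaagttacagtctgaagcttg
H2-Aa: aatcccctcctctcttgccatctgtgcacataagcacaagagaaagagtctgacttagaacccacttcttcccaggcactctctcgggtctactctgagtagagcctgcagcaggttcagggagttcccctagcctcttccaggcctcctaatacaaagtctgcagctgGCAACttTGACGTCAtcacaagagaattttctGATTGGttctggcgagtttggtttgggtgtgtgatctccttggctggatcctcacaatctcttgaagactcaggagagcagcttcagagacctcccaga
B2m: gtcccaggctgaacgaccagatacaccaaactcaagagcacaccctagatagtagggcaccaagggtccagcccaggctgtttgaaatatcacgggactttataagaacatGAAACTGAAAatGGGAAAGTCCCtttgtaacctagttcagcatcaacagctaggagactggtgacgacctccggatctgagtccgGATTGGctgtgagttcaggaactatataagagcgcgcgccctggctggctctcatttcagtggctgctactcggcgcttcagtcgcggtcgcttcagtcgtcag
Tap1: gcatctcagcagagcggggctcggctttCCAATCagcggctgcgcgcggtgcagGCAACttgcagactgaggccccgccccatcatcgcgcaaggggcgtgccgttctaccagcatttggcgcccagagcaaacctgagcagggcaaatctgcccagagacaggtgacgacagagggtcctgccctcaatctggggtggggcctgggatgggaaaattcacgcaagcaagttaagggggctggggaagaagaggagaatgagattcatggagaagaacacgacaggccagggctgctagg

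In both class II windows an X box core was followed by a Y box core on the same strand. In H2-Eb1 they started at positions -91 and -60, counted from the gene start, with 26 bases between them. In H2-Aa they started at positions -81 and -49 with 27 bases between them, and TGACGTCA stood between them at position -74. Such an ordered pair within 40 bases was found in 0.63% of 32851 mouse promoter windows, while GCAAC alone was found in 35.2% and GATTGG alone in 16.1%. The B2m window held GAAACTGAAA at position -139 and GGGAAAGTCCC at position -127, motifs found in 3.44% and 0.764% of windows. It also held GATTGG at position -54. TGACGTCA was found in 1.79% of windows. Promoter windows were matched for 6 of the 10 members, and the ordered pair was in neither B2m, Tap1, Psmb8 nor Psmb9. Of the 5 motifs the Tap1 window held only CCAATC at position -222 and GCAAC at position -196, cores that are common among all windows. The Tap1 and Psmb9 genes stand head to head, and 275 bases are common to their windows. The Psmb8 window held none of the 5 motifs.

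The members were measured above the array background, set on each array at the level that 95 of 100 probe sets for chemosensory receptors (1217 odorant, vomeronasal or trace-amine receptors) did not exceed. That background lay between 4.58 and 4.79 log2 units on the epidermal arrays and between 5.77 and 5.92 on the DRG arrays, and all 10 members exceeded it on all 18 arrays. Ciita came nearest to it. Trpa1 itself exceeded background on 0 of the 12 epidermal arrays. In DRG it averaged 8.61 ± 0.21 in mutant mice and 8.99 ± 0.10 in control mice (log2 signal, SD, n = 3 each). Where its probes lie relative to the deleted exons was not given in the sources used here, so this does not check the genotype labels. Arrays of the 2 tissues differ in their distribution and were compared only within a tissue.

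CFA raised 6 of the 10 members in mutant epidermis and all 10 in control epidermis. In mutant epidermis B2m, Tap1, Tap2, Psmb8, Psmb9 and Ciita rose by 1.20-fold to 2.86-fold. In control epidermis the 10 rose by 1.3-fold for H2-Aa to 3.51-fold for Psmb8, with Benjamini-Hochberg adjusted p between 2.63e-05 and 0.012 (limma). Of all 23410 probe sets tested, 26% passed the threshold of an adjusted p under 0.05 in mutant epidermis and 12.9% passed it as higher. In control epidermis 26.3% passed and 11.5% passed as higher. As lower, 13.1% passed in mutant and 14.8% in control epidermis. The CFA and naive arrays did not overlap for 43.5% of all probe sets in mutant and 43.8% in control epidermis. The median change of the members was 0.47 log2 units in mutant epidermis and 1.03 in control epidermis, against medians of 0.04 and 0.03 over all probe sets. When the spread of each gene was estimated alone, without limma's moderation across genes, the calls were lost for Tap2 in mutant epidermis (adjusted p = 0.105) and for Psmb8 (0.0667) and Psmb9 (0.0664) in control epidermis. In these whole-tissue samples, fewer cells of a type and less RNA per cell cannot be told apart.

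**Figure D1:**
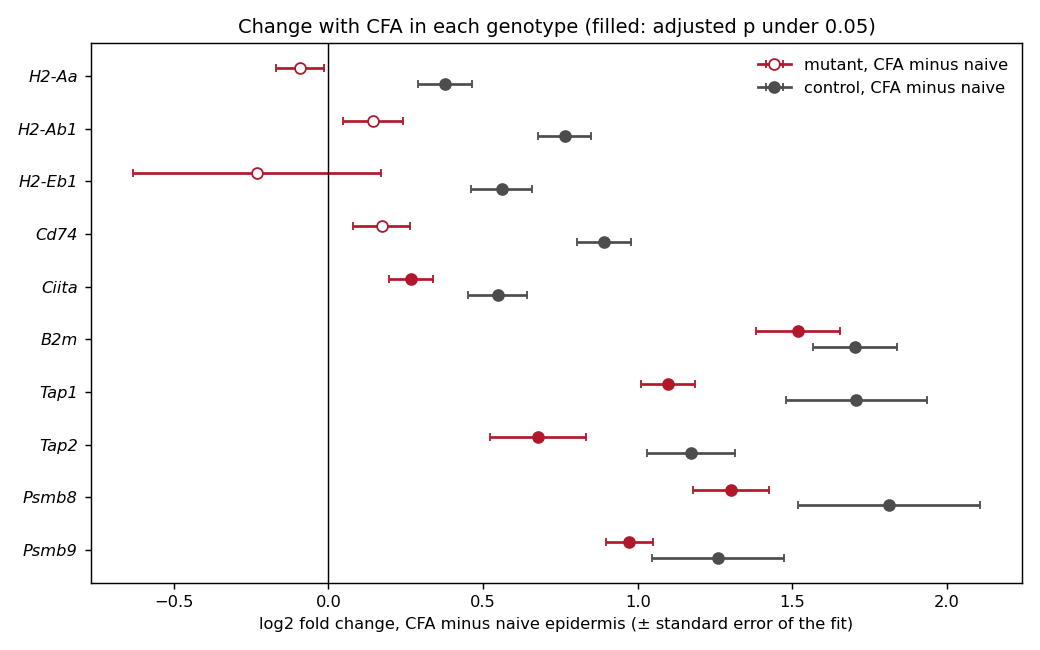
Change of each member with CFA, as the difference in log2 signal between CFA and naive epidermis, in mutant mice (red) and control mice (grey), with bars for the standard error of the limma fit. The control points lie to the right of the mutant points for all 10 genes, and the open symbols, for H2-Aa, H2-Ab1, H2-Eb1 and Cd74 in mutant mice, did not reach an adjusted p under 0.05.

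The class II alpha chain gene H2-Aa (probe set 10450154) pairs with H2-Ab1. It was at 8.93, 8.96 and 8.93 log2 units on the CFA mutant arrays, against 9.19, 9.31 and 9.13 on the CFA control arrays. On naive arrays it was at 8.98, 9.14 and 8.97 in mutant mice, against 8.84, 8.87 and 8.80 in control mice. The 4 groups did not overlap in any of the designed pairs, and their means ran, from high to low, CFA control, naive mutant, CFA mutant, naive control. H2-Aa rose with CFA by 0.38 ± 0.09 log2 units in control epidermis (standard error, adjusted p = 0.012 by limma). In mutant epidermis the difference was -0.09 ± 0.08 (adjusted p = 0.42). The genotype difference was -0.27 in CFA epidermis (adjusted p = 0.38) and 0.19 in naive epidermis (adjusted p = 0.50).

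H2-Ab1 (probe set 10444291) encodes the beta chain that pairs with H2-Aa. In CFA epidermis it was at 8.75, 8.89 and 8.83 in mutant mice, against 9.38, 9.31 and 9.48 in control mice. In naive epidermis it was at 8.84, 8.52 and 8.68 in mutant mice, against 8.64, 8.61 and 8.64 in control mice. The CFA control arrays stood above all other epidermal arrays, while the arrays of the other 3 groups lay between 8.52 and 8.89. H2-Ab1 rose 1.70-fold with CFA in control epidermis (0.76 ± 0.09 log2 units, adjusted p = 0.000204). In mutant epidermis the difference was 0.14 ± 0.10 (adjusted p = 0.32). Between genotypes in CFA epidermis it was 1.48-fold lower in mutant mice, a difference of -0.57 ± 0.09 that did not reach the threshold (adjusted p = 0.0646, limma, 0.0132 to 0.374 over 15 alternative settings).

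H2-Eb1 (probe set 10444298), the beta chain gene of the other class II pair, had the lowest mutant values relative to control among the members in each comparison, and in epidermis it varied most among mutant arrays. In CFA epidermis it was at 5.87, 7.04 and 7.05 in mutant mice, against 8.15, 8.45 and 8.28 in control mice. In naive epidermis it was at 7.26, 6.04 and 7.34 in mutant mice, against 7.76, 7.76 and 7.68 in control mice. In DRG it was at 7.60, 7.74 and 7.78 in mutant mice, against 8.24, 8.62 and 8.80 in control mice. Every mutant array was below every control array in each of the 3 comparisons. The SD among the 3 arrays was 0.68 in CFA mutant and 0.73 in naive mutant epidermis, against 0.15 in CFA control and 0.05 in naive control epidermis. In DRG it was 0.09 in mutant and 0.28 in control mice.

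The genotype difference of H2-Eb1 was -1.64 ± 0.27 log2 units in CFA epidermis, 3.12-fold (adjusted p = 0.0658). It was -0.85 ± 0.31 in naive epidermis, 1.8-fold (adjusted p = 0.50), and -0.85 ± 0.13 in DRG, also 1.8-fold (adjusted p = 0.0775). None passed the threshold in limma over all probe sets. In CFA epidermis the adjusted p was 0.00918 without CFA mutant replicate 1, with a difference of -1.25, and 0.028 without CFA mutant replicate 3, with -1.84. In naive epidermis the difference was -0.43 without naive mutant replicate 2 (adjusted p = 0.34), and in DRG it was -1.0 without control replicate 1 (adjusted p = 0.00702). Over 15 alternative settings each the adjusted p ran from 0.000947 to 0.609 in CFA epidermis, from 0.341 to 0.713 in naive epidermis and from 0.00702 to 0.695 in DRG.

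With CFA, H2-Eb1 rose 1.47-fold in control epidermis (0.56 ± 0.10, adjusted p = 0.00302). In mutant epidermis the difference was -0.23 ± 0.40 (adjusted p = 0.71), and it lay between -0.65 and 0.16 over the alternatives, the lowest without naive mutant replicate 2 and the highest without CFA mutant replicate 1. The call in control epidermis was lost when all 12 epidermal arrays shared 1 estimate of the spread (adjusted p = 0.215).

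**Figure D2:**
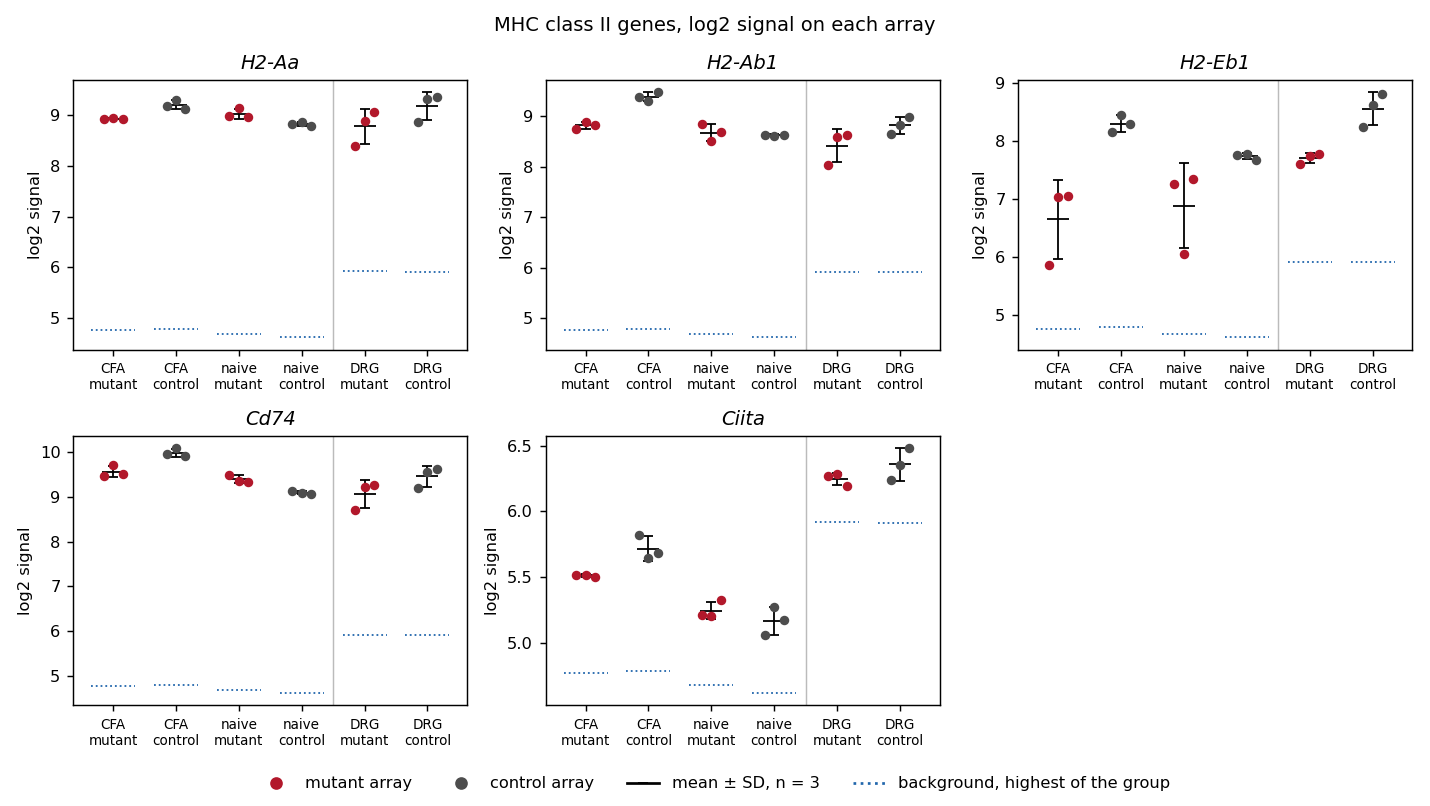
Log2 signal of the class II chain genes, Cd74 and Ciita on each of the 18 arrays, mutant arrays in red and control arrays in grey, with the mean and SD of each group of 3 and the highest background of the group as a dotted line. The 3 CFA control arrays of H2-Ab1 lie above all other epidermal arrays, and the mutant arrays of H2-Eb1 lie below the control arrays in each pair of groups.

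Cd74 (probe set 10456005), the invariant chain that fills the class II groove until peptide is loaded, is encoded outside the MHC. It was at 9.46, 9.71 and 9.52 on the CFA mutant arrays, against 9.95, 10.09 and 9.91 on the CFA control arrays. On naive arrays it was at 9.49, 9.35 and 9.34 in mutant mice, against 9.13, 9.08 and 9.06 in control mice. Mutant arrays thus lay below control arrays after CFA and above them without it, with no overlap in either pair. Cd74 rose 1.86-fold with CFA in control epidermis (0.89 ± 0.09, adjusted p = 9.33e-05), and the difference in mutant epidermis was 0.17 ± 0.09 (adjusted p = 0.21). The genotype difference was -0.42 in CFA epidermis (adjusted p = 0.21) and 0.30 in naive epidermis (adjusted p = 0.39), neither past the threshold.

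Ciita (probe set 10433507), the coactivator that class II promoters need, was measured close to background. It was at 5.52, 5.52 and 5.50 on the CFA mutant arrays, against 5.82, 5.65 and 5.68 on the CFA control arrays. On naive arrays it was at 5.21, 5.20 and 5.32 in mutant mice, against 5.06, 5.27 and 5.17 in control mice. The CFA arrays lay above the naive arrays in either genotype, and the naive groups overlapped. Ciita rose 1.20-fold with CFA in mutant epidermis (0.27 ± 0.07, adjusted p = 0.0271) and 1.46-fold in control epidermis (0.55 ± 0.10, adjusted p = 0.00276). The call in mutant epidermis was lost without naive mutant replicate 1 or 2 or without any CFA mutant array (adjusted p between 0.0504 and 0.0898), with the arrays centred on the median (0.0517) and with replicate number as a block (0.0599).

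Of 13 other genes listed for class II presentation, 3 rose and 3 fell with CFA in mutant epidermis, and 4 rose and 2 fell in control epidermis. The list, like those that follow, was chosen with earlier results of these data known. The lysosomal protease Lgmn rose by 1.63 log2 units in mutant and 2.12 in control epidermis. Ctsl, a lysosomal protease that cleaves the invariant chain, fell by 2.12 in mutant and 0.87 in control epidermis, and Marchf8, a ubiquitin ligase that can remove class II from the cell surface, fell by 1.07 and 1.01. H2-DMa, a chain of the DM molecule that loads peptide, fell by 0.44 in mutant epidermis, and its difference in control epidermis was 0.16 (adjusted p = 0.24). Between genotypes Ctsl was the only gene of the 18 in the list, members included, to pass the threshold in CFA epidermis, and it was 2.03-fold lower in mutant mice (adjusted p = 0.0485, limma). H2-Ea, the alpha chain that pairs with H2-Eb1, exceeded background on none of the 18 arrays.

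The class I genes formed the larger part of the CFA response. B2m (probe set 10475414) was at 10.82, 10.88 and 11.24 on the CFA mutant arrays, against 9.68, 9.41 and 9.31 on the naive mutant arrays. In control mice it was at 11.07, 11.45 and 10.90 with CFA, against 9.47, 9.49 and 9.35 without it. The CFA and naive arrays did not overlap, while the genotypes overlapped in each condition. B2m rose 2.86-fold in mutant (1.52 ± 0.14 log2 units, adjusted p = 0.000121) and 3.25-fold in control epidermis (1.70 ± 0.14, adjusted p = 2.63e-05).

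Tap1 (probe set 10444244) was at 7.57, 7.55 and 7.64 on the CFA mutant arrays, against 6.61, 6.52 and 6.35 on the naive mutant arrays. In control mice it was at 8.0, 8.83 and 7.82 with CFA, against 6.65, 6.36 and 6.52 without it. It rose 2.14-fold in mutant (1.10 ± 0.09, adjusted p = 5.97e-05) and 3.26-fold in control epidermis (1.71 ± 0.23, adjusted p = 0.000599). The CFA groups of the genotypes did not overlap, at a difference of -0.62 ± 0.22 (mutant minus control, adjusted p = 0.42), and -0.32 without CFA control replicate 2. Tap2 (probe set 10444268) was at 7.06, 6.87 and 7.17 on the CFA mutant arrays, against 6.66, 6.39 and 6.03 on the naive mutant arrays. In control mice Tap2 was at 7.24, 7.42 and 6.91 with CFA, against 6.18, 5.86 and 6.01 without it. Tap2 rose 1.60-fold in mutant (adjusted p = 0.0134) and 2.25-fold in control epidermis (adjusted p = 0.000326), and its genotypes overlapped in both conditions.

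Psmb8 (probe set 10444258) and Psmb9 (probe set 10450145) are catalytic subunits that replace constitutive ones in the immunoproteasome. Psmb8 was at 7.13, 7.04 and 7.51 on the CFA mutant arrays, against 5.93, 5.87 and 5.98 on the naive mutant arrays. In control mice it was at 7.41, 8.50 and 7.11 with CFA, against 5.84, 5.98 and 5.77 without it. CFA and naive arrays lay apart by more than 1 log2 unit, and Psmb8 rose 2.46-fold in mutant (adjusted p = 0.000165) and 3.51-fold in control epidermis (adjusted p = 0.00187). Psmb9 was at 7.45, 7.34 and 7.47 on the CFA mutant arrays, against 6.44, 6.39 and 6.52 on the naive mutant arrays. In control mice Psmb9 was at 7.40, 8.23 and 7.31 with CFA, against 6.38, 6.30 and 6.47 without it. It rose 1.96-fold in mutant (adjusted p = 6.04e-05) and 2.39-fold in control epidermis (adjusted p = 0.00225).

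Among epidermal arrays CFA control replicate 2 was the highest for B2m, Tap1, Tap2, Psmb8 and Psmb9. The interferon-induced genes Cxcl9, at 9.36 log2 units, and Iigp1, at 8.82, were also highest on that array. Without it Psmb8 differed between genotypes in CFA epidermis by -0.03 in place of -0.45, Psmb9 by 0.07 in place of -0.22, B2m by -0.0028 in place of -0.16 and Tap2 by -0.04 in place of -0.16 (mutant minus control). All 10 rises with CFA in control epidermis still passed the threshold without it.

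**Figure D3:**
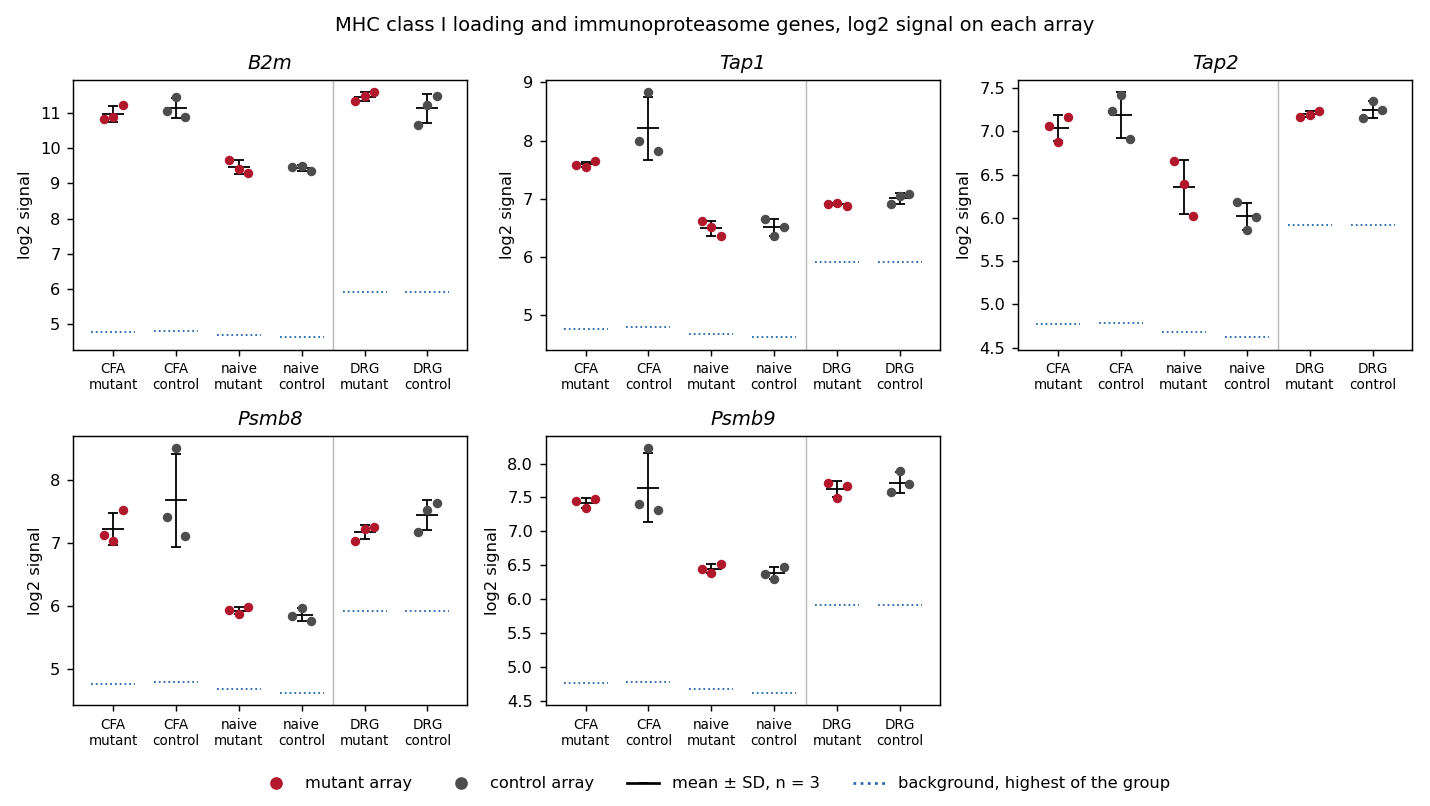
Log2 signal of B2m, Tap1, Tap2, Psmb8 and Psmb9 on each of the 18 arrays, mutant arrays in red and control arrays in grey, with the mean and SD of each group of 3 and the highest background of the group as a dotted line. CFA arrays lie above naive arrays for all 5 genes, and CFA control replicate 2 is the highest epidermal point in each panel.

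Of 10 other genes listed for class I presentation, 8 rose and 0 fell with CFA in mutant epidermis, and 7 rose and 0 fell in control epidermis. They included Erap1, which trims peptides (0.84 log2 units in mutant, 1.21 in control), the transcription factor Irf2 (0.98 and 1.31) and the non-classical class I gene H2-Q4 (0.63 and 1.38). H2-K1 and H2-D1, the classical class I heavy chains, were not analysed here. Nlrc5, the class I counterpart of Ciita, was covered by 19 probe sets, of which 14 rose in mutant and 16 in control epidermis. In the immunoproteasome list Psmb10, the remaining inducible catalytic subunit, rose by 0.42 in mutant and 1.02 in control epidermis. Of 14 subunits of the constitutive proteasome core, 0 rose, while 3 fell in mutant and 6 in control epidermis. Of all probe sets 13.1% fell in mutant and 14.8% in control epidermis. Psmb6, the subunit that Psmb9 replaces, fell by 0.46 in mutant and 0.65 in control epidermis, and Psmb3, another beta subunit, by 0.47 and 0.61.

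Of 12 genes listed for interferon-gamma signalling, 6 rose in mutant and 7 in control epidermis. Iigp1, an interferon-induced GTPase, was below background on all naive arrays. It was above background on 1 of 3 CFA mutant arrays, and in control mice it was at least 6.46-fold higher with CFA than the background of the naive arrays. In mutant mice the same bound was -0.19 log2 units, so Iigp1, counted among the 6, has no rise above background shown there. The chemokine gene Cxcl9 rose at least 3.8-fold in mutant epidermis, where 1 of 3 naive arrays was above background, and at least 12.2-fold in control epidermis. Irf1, a transcription factor of class I and Ciita promoters, rose by 0.88 log2 units in mutant and 1.94 in control epidermis. Ifngr1, a chain of the interferon-gamma receptor, rose by 1.35 and 1.74, and Irf9, a transcription factor of the interferon response, by 0.86 and 1.78. Between genotypes none of the 12 passed the threshold in CFA epidermis, and their median was -0.43 (mutant minus control). Irf1 differed there by -1.07 (adjusted p = 0.11).

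Between genotypes in CFA epidermis all 10 members were lower in mutant mice on average (9 without CFA control replicate 2), but 0 passed the threshold (limma, adjusted p between 0.0646 and 0.851), where 0.179% of all probe sets did. At an unadjusted p under 0.05, 6 of the 10 were lower (H2-Eb1, H2-Ab1, H2-Aa, Cd74, Ciita and Tap1), against 3.91% of all probe sets. The mutant and control arrays did not overlap for the same 6, where 5.6% of all probe sets lay apart in this direction. The median difference of the members was -0.35 log2 units, against 0.01 over all probe sets. In naive epidermis 0 of 10 passed, with 0.0299% of all probe sets. There 2 members were higher (Cd74 and H2-Aa) and 1 was lower (H2-Eb1) at an unadjusted p under 0.05, against 4.16% and 4.78% of all probe sets, and the median was 0.06. The naive arrays of the genotypes did not overlap for the same members, where 7.66% of all probe sets lay apart as higher and 8.93% as lower.

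The difference in the CFA response, mutant minus control, was negative for all 10 members, and 0 passed the threshold (limma), where 0.0256% of all probe sets did. At an unadjusted p under 0.05, 6 were lower (H2-Aa, H2-Ab1, Cd74, Ciita, Tap1 and Tap2), against 3.68% of all probe sets. Cd74 differed most clearly, by -0.72 ± 0.12 log2 units (adjusted p = 0.0903, 0.0148 to 0.318 over 20 alternative settings). Without CFA control replicate 3 it was -0.76 (adjusted p = 0.0332). Without CFA control replicate 2 Psmb9 differed by 0.005 in place of -0.29, B2m by -0.03 in place of -0.18, Psmb8 by -0.10 in place of -0.51 and Tap1 by -0.30 in place of -0.61, while the other 6 members stayed between -0.71 and -0.32. H2-Ab1 differed by -0.62 ± 0.13 (adjusted p = 0.16), H2-Aa by -0.47 ± 0.11 (adjusted p = 0.23) and H2-Eb1 by -0.79 ± 0.46 (adjusted p = 0.68). This comparison, both CFA responses and the 2 genotype comparisons in epidermis are built from the same 12 arrays and are not independent of one another.

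Of 12 markers of Langerhans and dendritic cells 0 passed the threshold between mutant and control CFA epidermis, and their median difference was -0.05 (mutant minus control). At an unadjusted p under 0.05, 2 were lower (Cd207 and Itgax) and 1 was higher (Ccr7). Cd207, the marker of Langerhans cells, was at 6.29, 6.15 and 5.91 log2 units on the CFA mutant arrays, against 6.91, 6.93 and 6.62 on the CFA control arrays (difference -0.70, adjusted p = 0.0873). Itgax, also a dendritic cell marker, differed by -0.37 (adjusted p = 0.33), with no overlap between the genotypes. Ccr7, a chemokine receptor of migrating dendritic cells, differed by 0.32 (adjusted p = 0.34). All 3 of its mutant arrays exceeded background, as did 1 of 3 in control mice. The mean level of the 12 markers per array ran from 4.75 to 4.86 in mutant and from 4.81 to 4.96 in control mice. Cd83, Clec9a, Xcr1 and Cd209a were above background on none of these 6 arrays, and Ccr6 on none of the 3 mutant arrays. Only 6 of the 12 markers in mutant and 5 in control mice exceeded background on all 3 arrays. The median and the mean levels therefore rest in part on signals at background.

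Of 12 markers of monocytes and macrophages 2 passed the threshold as lower in mutant CFA epidermis, Csf1r by 0.78 log2 units (adjusted p = 0.0103) and Fcgr3 by 1.02 (adjusted p = 0.0308). Cd14 (0.26) and Cd68 (0.07) were higher on average, short of the threshold. So was Lyz2, which was above background on none of the CFA control arrays. All other markers of the list were lower on average and short of the threshold, among them C1qb (-0.66) and Itgam (-0.57). The median of the 12 was -0.18. The mean level of these markers ran from 5.17 to 5.32 in mutant and from 5.42 to 5.59 in control mice, while Adgre1 and Mertk were above background on none of the 6 arrays. The mean level of 6 B cell markers ran from 4.0 to 4.25 in mutant and from 4.02 to 4.13 in control mice, and Ms4a1, Cd79a and Cr2 were above background on none. The part of these cell types in the class II differences was not tested.

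In DRG the class II genes were lower in mutant mice on average and B2m was higher, but 0 of the 10 members passed the threshold (limma), where 0.0726% of all probe sets did. Only H2-Eb1 and H2-Ab1 had no overlap between the genotypes, both lower in mutant mice, and 6.77% of all probe sets lay apart in this direction. H2-Ab1 was at 8.04, 8.60 and 8.62 in mutant mice, against 8.65, 8.83 and 8.98 in control mice, a difference of -0.40 ± 0.16 (adjusted p = 0.68). H2-Aa was at 8.40, 8.89 and 9.06 in mutant mice, against 8.88, 9.33 and 9.36 in control mice. Cd74 was at 8.71, 9.22 and 9.26 in mutant mice, against 9.19, 9.55 and 9.63 in control mice. In each of these 3 genes the lowest array of either genotype was replicate 1.

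B2m in DRG was at 11.34, 11.49 and 11.59 in mutant mice, against 10.68, 11.23 and 11.50 in control mice, a difference of 0.34 ± 0.18 (adjusted p = 0.72) and of 0.11 without control replicate 1. Ciita, Tap1, Tap2, Psmb8 and Psmb9 differed by -0.27 to -0.05 with overlapping arrays. Keratin transcripts were raised on a DRG array of each genotype, Krt10 being at 8.20 on mutant replicate 1 and at 7.42 on control replicate 3, against 6.39 to 6.73 on the other 4. Without these 2 arrays the differences were -0.67 for H2-Eb1 and -0.13 for H2-Aa, H2-Ab1 and Cd74, and 0 members passed. Macrophage markers in DRG had a mean level of 6.80 to 7.13 in mutant and 6.90 to 7.15 in control mice, and none of the 12 passed the threshold.

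Among the mutant arrays of epidermis a low H2-Eb1 signal went with a high signal of Glo1, which encodes a methylglyoxal-detoxifying enzyme and lies on chromosome 17, as do 7 of the 10 members. Glo1 had 2 probe sets, and only the brighter (10471675) is given here. Whether the other follows it, and where the probes of either align on the genome, was not examined. Glo1 is named with its values because it was the gene of a list of chromosome 17 neighbours that passed the threshold in both CFA epidermis and DRG. It was at 10.61, 10.18 and 10.13 log2 units on the CFA mutant arrays, against 9.06, 9.02 and 9.20 on the CFA control arrays. On naive arrays Glo1 was at 9.53, 10.60 and 9.62 in mutant mice, against 9.72, 9.58 and 9.67 in control mice. In DRG it was at 10.80, 10.76 and 10.79 in mutant mice, against 9.98 to 10.05 on the 3 control arrays. The epidermal arrays with the lowest H2-Eb1, CFA mutant replicate 1 and naive mutant replicate 2, were those with the highest Glo1.

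Glo1 was 2.32-fold higher in mutant CFA epidermis (1.21 log2 units, adjusted p = 0.0103) and 1.70-fold higher in mutant DRG (0.77, adjusted p = 0.00378). In naive epidermis the difference was 0.26 (adjusted p = 0.77), with naive mutant replicate 2 alone above the control arrays. Its neighbour Dnah8 was at least 1.26-fold higher in mutant DRG (adjusted p = 0.0169), since the control arrays were below background. Btbd9 differed there by 0.45 (adjusted p = 0.32). In CFA epidermis Dnah8 differed by 0.10 (limma, adjusted p = 0.90) and Btbd9 by 0.29 (adjusted p = 0.50). In naive epidermis Dnah8 differed by -0.11 (adjusted p = 0.69) and Btbd9 by 0.11 (adjusted p = 0.80). A segment with these 3 genes is known to vary in copy number between inbred mouse strains, and MHC haplotypes vary between strains too. Neither the copy number nor the haplotype of these mice was given in the sources used here, and their part in the H2-Eb1 and Glo1 values was not tested.

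**Figure D4:**
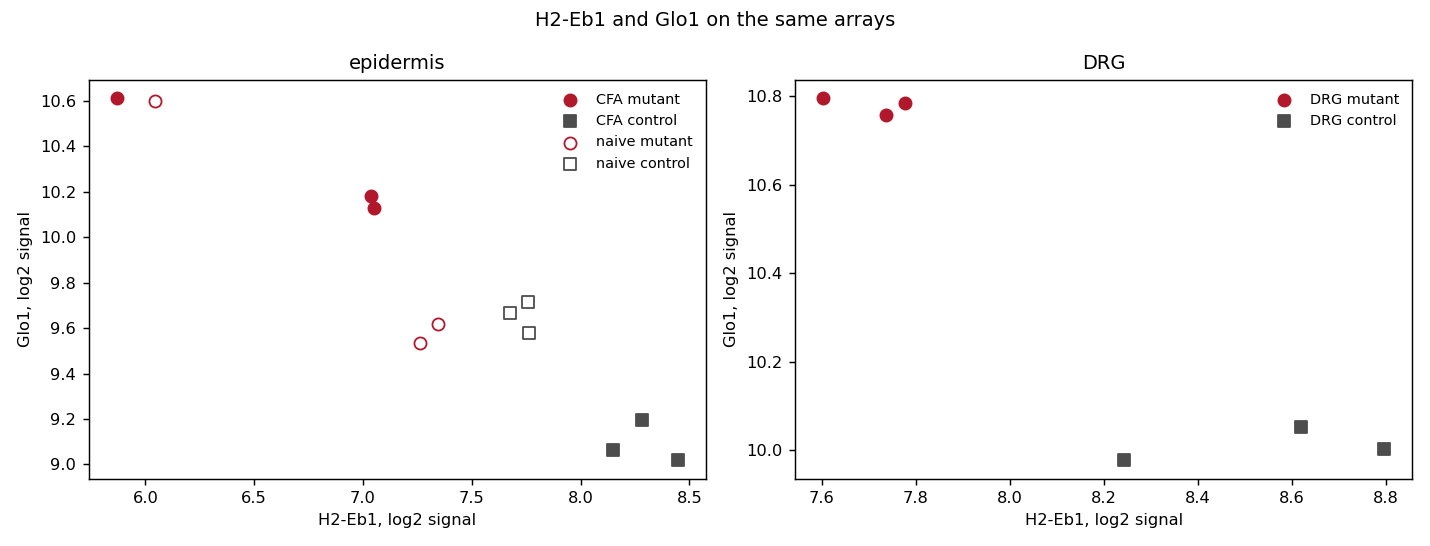
Log2 signal of Glo1 against that of H2-Eb1 on the same arrays, epidermis at left and DRG at right, with mutant arrays in red and control arrays in grey and each point 1 array. The lowest H2-Eb1 values, 5.87 on CFA mutant replicate 1 and 6.04 on naive mutant replicate 2, fall on the epidermal arrays with the highest Glo1, 10.61 and 10.60.

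**Figure D5:**
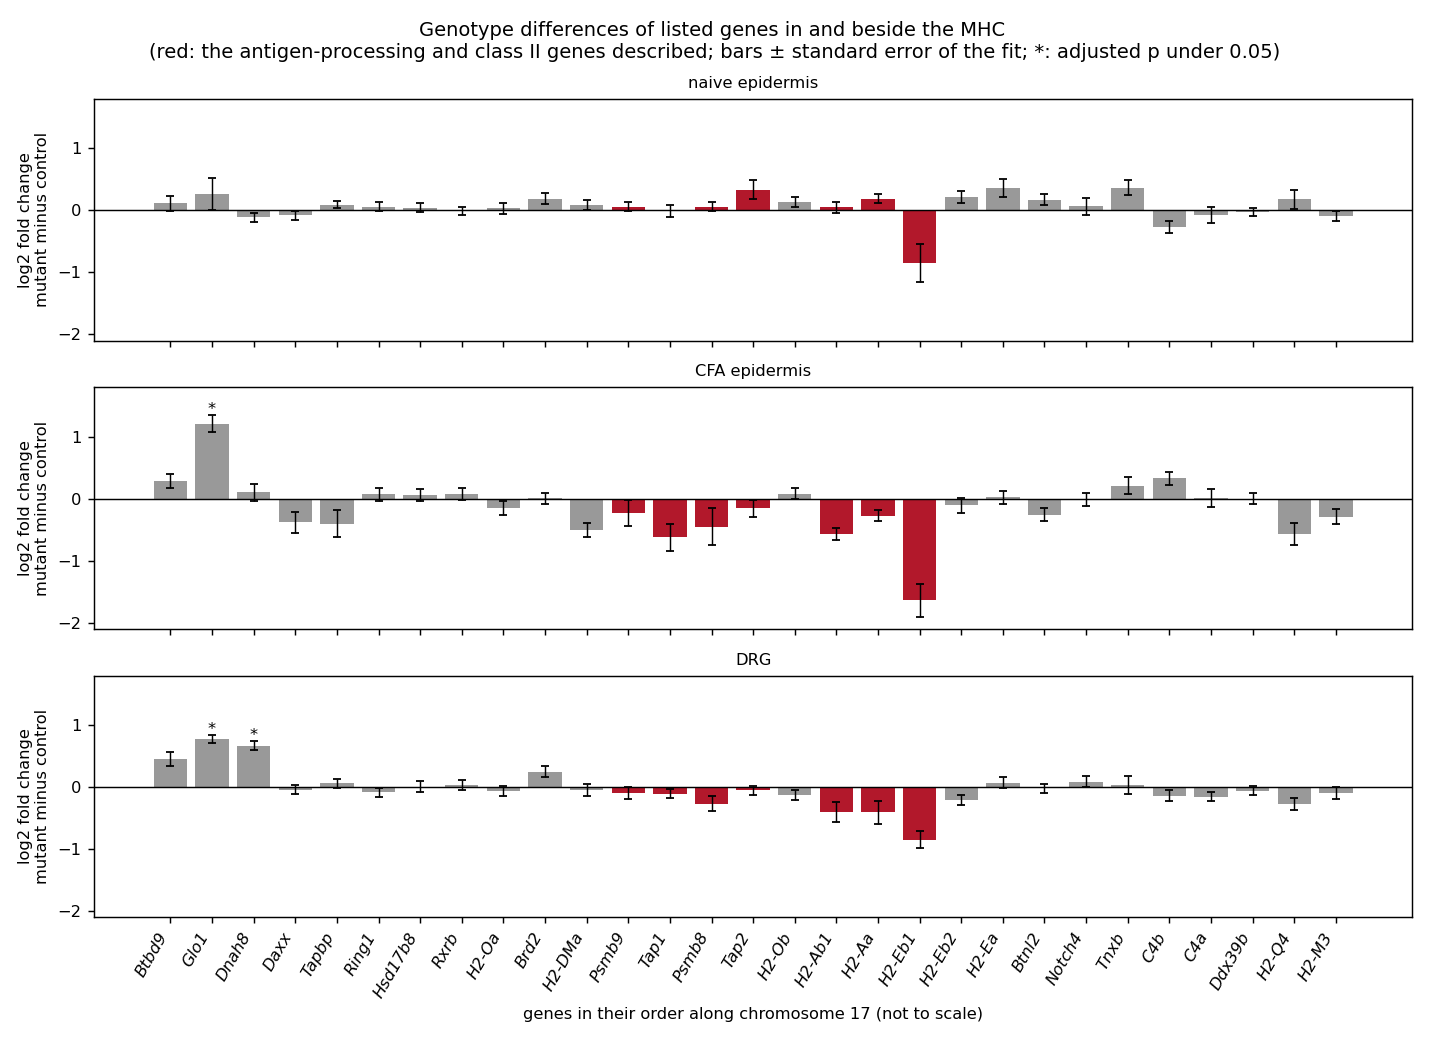
Difference in log2 signal between mutant and control mice for listed genes in and beside the MHC, in their order along chromosome 17 and not to scale, with members in red, standard errors of the limma fit as bars and an asterisk at an adjusted p under 0.05. H2-Eb1 has the lowest bar in each panel (-0.85 in naive epidermis, -1.64 in CFA epidermis and -0.85 in DRG), and the asterisks are on Glo1 and Dnah8.

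The genes most like H2-Ab1 and most like Psmb8 were taken over the 12 epidermal arrays. Among 1963 probe sets above background on all 12 arrays and spanning at least 1 log2 unit, those most like H2-Ab1 by Pearson correlation were Clec2d (r = 0.93), Asap3 (0.92), Gm14403 (0.92), Lrrc4 (0.91) and Kansl1l (0.90). With group means removed their r ran from -0.13 to 0.46. Those most like Psmb8 were Tmsb10 (0.98), Nlrc5 (0.97), Lgals9 (0.97), Samhd1 (0.97) and Lgals8 (0.97), and with group means removed their r ran from 0.83 to 0.91. The arrays share their groups and normalization, and these values are a description of the 12 arrays.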

How the data were processed

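The authors hybridised labelled cDNA to Affymetrix Mouse Gene 1.0 ST arrays and deposited RMA-normalized log2 values, made with Partek, which were not transformed further. GEO's platform annotation named the probe sets: 23410 have at least 1 gene, 1621 several and 12146 none. Every comparison was fitted to its own groups with limma 3.58.1 (lmFit, eBayes, two-sided; R 4.3.3), with Benjamini-Hochberg adjustment over the 23410 and a threshold of 0.05. The difference in CFA response used all 12 epidermal arrays. Errors are standard errors of the fit unless called SD. A listed gene with several probe sets is given by the brightest. A gene below background on all arrays of a group is given as a lower bound against that background. Simulated data with known changes were used to test the fits. Other tools were the R package data.table (1.17.8), Python 3.11.15, numpy 2.4.6, pandas 2.3.3 and matplotlib 3.10.9.

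The members and lists were chosen with earlier results of these data known. Named were all members, genes from among the 4 per list and comparison past the threshold with the largest change, though not all of them, the 5 genes most like H2-Ab1 and Psmb8, and Trpa1. Cd207, Itgax, Ccr7, Nlrc5, H2-Ea, Btbd9, Krt10, genes named as below background, and Irf1 between genotypes were named after their values had been seen. So were Lyz2, Cd14, Cd68, C1qb and Itgam between genotypes. Some genes were not analysed here because no probe set is paired with them alone. Alternatives were other normalizations, filters, moderation, array weights, replicate number as a block and leaving out each array.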

Additional observations from a re-analysis of the deposited data

Results flagged for a closer look

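Cd74 and H2-Aa moved in opposite directions between conditions, on all arrays of the groups concerned. Arrays lay apart in this way for many probe sets. Between genotypes 5.6% of all probe sets lay apart as lower in mutant CFA epidermis and 7.66% as higher in mutant naive epidermis. With CFA, 19.5% lay apart as lower in mutant and 21.7% as higher in control epidermis. Cd74 differed between genotypes, mutant minus control, by -0.42 log2 units in CFA epidermis and by 0.30 in naive epidermis. H2-Aa differed between genotypes by -0.27 in CFA epidermis and by 0.19 in naive epidermis. Its difference between CFA and naive arrays was -0.091 in mutant epidermis and 0.38 in control epidermis. The limma test of the difference itself gave -0.72 for Cd74 (adjusted p = 0.0903) and -0.47 for H2-Aa (adjusted p = 0.23), neither past the threshold.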

How the results depend on the processing

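The count of members past the threshold depended on the setting mainly between genotypes, where it was 0 in each comparison. In naive epidermis it was 1 with trend and robust moderation (Cd74, higher in mutant mice). In CFA epidermis it was 1 with trend and robust moderation, 2 with array weights and 3 with all 12 epidermal arrays in 1 fit (H2-Eb1, H2-Ab1 and Cd74, all lower in mutant mice). In DRG it was 1 with array weights (H2-Eb1). For the difference in CFA response it was 1 with trend and robust moderation and 1 with array weights (Cd74). Requiring a 2-fold change as well left 3 of 6 members in mutant and 5 of 10 in control epidermis for the CFA response. Leaving out each array in turn gave 0 to 0 members in naive epidermis, 0 to 1 in CFA epidermis, 0 to 1 in DRG, 5 to 6 for CFA in mutant epidermis, 10 to 10 for CFA in control epidermis and 0 to 1 for the difference in response. Among all 23410 probe sets these fits called 0 to 10 in naive epidermis, 15 to 146 in CFA epidermis and 8 to 203 in DRG. The main fits called 7, 42 and 17. For CFA the fits called 4219 to 5194 in mutant and 4345 to 5844 in control epidermis, and 2 to 87 for the difference in response. Counts over all probe sets with the other settings are not given here. With an ordinary ANOVA, the rises of Tap2 in mutant epidermis and of Psmb8 and Psmb9 in control epidermis kept their size but no longer passed the threshold. No called value of a member turned its direction under any alternative, and single members kept their side of the threshold in 922 fits, passed it in 17 where they had missed it, and missed it in 11 where they had passed.

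In no comparison did every same-numbered pair of arrays deviate together (correlations of deviations from the group means between -0.24 and 0.23). In DRG they were 0.18 for number 1, -0.05 for number 2 and 0.15 for number 3. With 3 arrays a group this cannot settle whether arrays of the same number were paired. With replicate number as a block the count was 2 in CFA epidermis (H2-Eb1 and H2-Ab1), 1 in DRG (H2-Eb1), 0 in naive epidermis, 5 for CFA in mutant epidermis, where Ciita was lost, 10 for CFA in control epidermis and 0 for the difference in response. Precision is limited by having 3 arrays a group, and Ciita lay closest to background.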
